A study of Mus musculus with 9 samples.

Results

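The chemokines and chemokine receptors of mouse liver were followed across 3 genotypes. Members were all genes whose only platform symbol is that of a Ccl, Cxcl, Xcl1 or Cx3cl1 ligand or a Ccr, Cxcr, Xcr1 or Cx3cr1 receptor, and the rule used no measured difference. It found 56 probe sets for 51 genes, 34 ligands and 17 receptors, among 19938 genes with a probe set of their own. Where a gene had several probe sets (Ccl19 and Ccl25), the one with the highest mean over all 9 arrays stood for it. Probe sets shared by the Ccl21 or by the Ccl27 copies fall outside the rule.

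Chemokines are small secreted proteins that draw leukocytes along gradients, and their names record the spacing of the first cysteines (CC, CXC, CX3C, XC). Each acts through one or several G protein-coupled receptors on the responding cell, so ligand and receptor transcripts usually come from different cells. In injured liver, hepatocytes, Kupffer cells, stellate cells and endothelium can all make ligands, and arriving monocytes, neutrophils and lymphocytes carry the receptors. Many ligand genes are known targets of NF-κB, the transcription factor whose activating kinase complex needs NEMO as its regulatory subunit.

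Whole liver RNA was hybridised to 9 single-channel arrays, 3 for each genotype, all from male C57/BL6 mice aged 8 to 9 weeks on standard chow. The groups were wild type, mice lacking NEMO in hepatocytes only (NEMOΔhepa, here NEMO knockout), and that knockout crossed to mice lacking p21 in every cell. The last is called the labelled double knockout for the reason given next. No group lacked p21 alone, the driver of the hepatocyte deletion is not named in the labels, and all other liver cells of the NEMO knockout keep NEMO. Values are RMA expression values on a log2 scale, where a difference of 1 is a doubling. A member was called when the limma test over all 28939 probe sets gave an adjusted p (Benjamini-Hochberg) under 0.05.

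The targeted genes were read first. Ikbkg, which encodes NEMO, ranged from 8.73 to 8.98 in wild type, 8.23 to 8.48 in the NEMO knockout and 8.10 to 8.45 in the labelled double knockout. Both knockout groups lay wholly below wild type (-0.52 ± 0.11, SE, limma adjusted p = 0.0184, and -0.60 ± 0.11, limma adjusted p = 0.00835). The only probe set with Cdkn1a, the p21 gene, is shared with 4930567H12Rik and was not reduced under the p21 label: it read 7.83 to 9.64 in wild type, 9.76 to 10.70 in the NEMO knockout and 10.14 to 11.14 in the labelled double knockout. Where its probes lie relative to the deleted part was not analysed here, so it does not check the loss of p21. The 10 hepatocyte markers averaged 12.90 to 12.98 on every array. Array medians lay between 6.47 and 6.58, and NEMO knockout replicate 1 had the lowest array weight, 0.412, against 0.78 for the next.

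Loss of NEMO in hepatocytes went with more transcript of a limited set of chemokines. Against wild type, 14 of 51 members were higher (27.5%, where 5.66% of all probe sets were called higher) and 1 was lower (1.96%, where 2.02% were called lower). With each array centred on its median, all probe sets split into 1304 higher and 1169 lower instead of 1638 and 584, and the members into 11 and 2. The 9 ligands that rose are Cxcl14, Ccl3, Ccl5, Cxcl16, Ccl6, Ccl19, Ccl17, Ccl22 and Cx3cl1, and the 5 receptors are Ccr2, Cx3cr1, Ccr7, Ccr9 and Xcr1. The B cell attractant Cxcl13 fell. The median member differed by 0.10 and the median gene of the array by -0.03. In whole liver, fewer cells of a type and less RNA per cell cannot be told apart.

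In the labelled double knockout the set was smaller: 7 members were higher than in wild type (13.7%, where 5.81% of all probe sets were called higher) and 3 were lower (5.88%, where 3.51% were). Median centring turned the split of all probe sets there from 1680 higher and 1016 lower to 1309 and 1661, and that of the members to 6 and 4. Ccl3, Ccl6, Cxcl14, Cxcl16, Ccr2 and Cx3cr1 were called higher in each comparison and Cxcl13 lower. Both comparisons use the same 3 wild type arrays, so their calls are not independent. The median member differed by 0.03, and the median gene by -0.03.

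**Figure D1:**
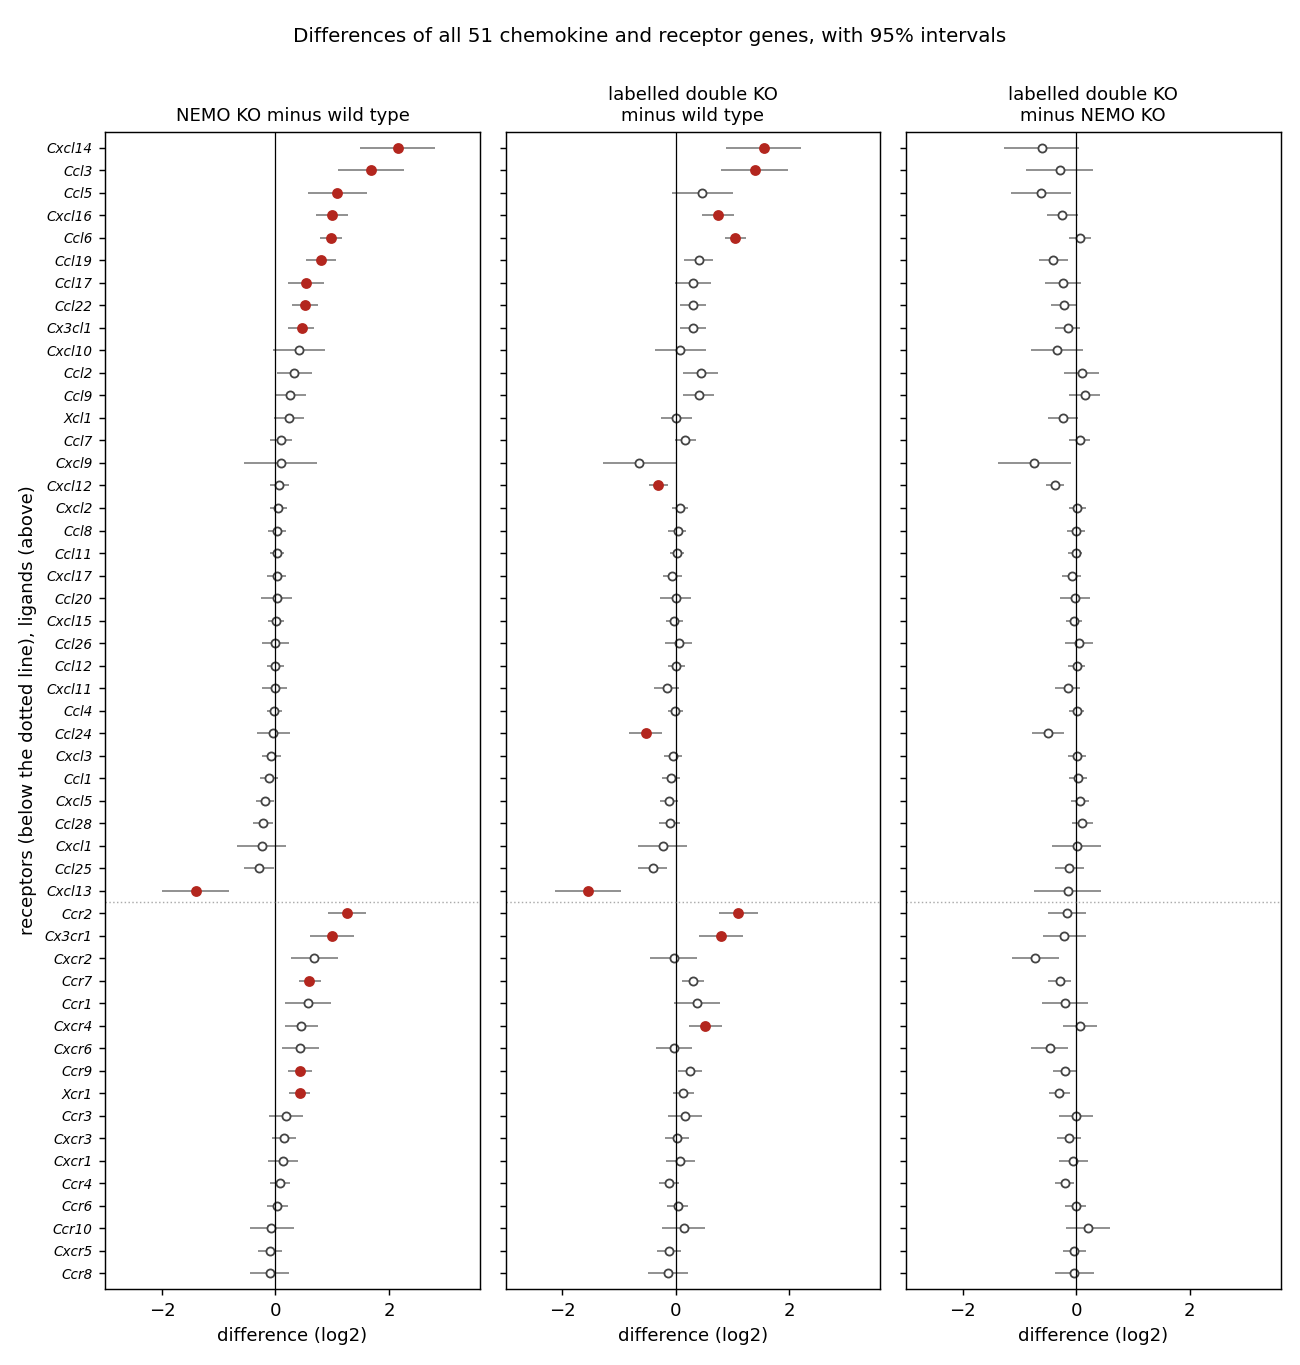
Mean difference (log2, horizontal axis) of each of the 51 genes with its 95% interval, for the NEMO knockout minus wild type, the labelled double knockout minus wild type, and the labelled double knockout minus the NEMO knockout; filled red points are called at an adjusted p under 0.05 and open points are not. The first panel holds 15 filled points, the second 10 and the third 0, and Cxcl14 at 2.16 and Cxcl13 at -1.40 are the extremes of the first.

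Cxcl14, a ligand that attracts monocytes and dendritic cells and is made by many epithelia, showed the largest difference of the family. It read 6.86, 7.05 and 7.24 on the wild type arrays, 8.57, 9.78 and 9.28 on the NEMO knockout arrays and 8.14, 8.99 and 8.66 on those of the labelled double knockout (replicates 1, 2 and 3, as in every such series below). All 6 knockout arrays lay above all 3 wild type arrays, and the knockout groups overlapped each other. The NEMO knockout was 4.47-fold above wild type (2.16 ± 0.30, SE, limma adjusted p = 0.0024) and the labelled double knockout 2.92-fold (1.55 ± 0.30, limma adjusted p = 0.0108).

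The macrophage inflammatory protein group of CC ligands, which attracts monocytes, macrophages and T cells, moved unequally. Ccl3, macrophage inflammatory protein 1α, read 5.66, 5.64 and 5.67 in wild type, 6.81, 7.35 and 7.87 in the NEMO knockout and 6.64, 7.02 and 7.47 in the labelled double knockout. Its wild type arrays lay within 0.03 of each other (SD 0.02), while the knockout arrays were higher and widely spread (SD 0.53 and 0.42). It was 3.21-fold higher in the NEMO knockout (1.68 ± 0.26, SE, limma adjusted p = 0.00437) and 2.62-fold higher in the labelled double knockout (1.39 ± 0.26, limma adjusted p = 0.00991).

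Ccl6, a rodent CC chemokine of macrophages, was higher by a like amount in both knockout groups. It read 7.79, 7.79 and 7.65 in wild type, 8.58, 8.88 and 8.71 in the NEMO knockout and 8.82, 8.75 and 8.80 in the labelled double knockout. Neither knockout group overlapped wild type, and the differences of 0.98 ± 0.08 (1.97-fold, limma adjusted p = 0.000291) and 1.05 ± 0.08 (2.07-fold, limma adjusted p = 0.000187) had the smallest adjusted p of the family.

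Ccl5, also known as RANTES and made by T cells, NK cells and macrophages, was called in the NEMO knockout and not in the labelled double knockout. It read 7.66, 7.36 and 7.53 in wild type, 8.20, 8.37 and 9.27 in the NEMO knockout and 8.00, 7.85 and 8.11 in the labelled double knockout. NEMO knockout replicate 3 stood above the other arrays, and none of the 3 groups overlapped. The NEMO knockout was 2.14-fold higher than wild type (1.09 ± 0.24, SE, limma adjusted p = 0.0211), and the labelled double knockout differed by 0.47 ± 0.24 (limma adjusted p = 0.304). The difference between the knockout groups, -0.62 (95% interval -1.15 to -0.10), did not pass (limma adjusted p = 0.591). Without wild type replicate 2 or 3 the NEMO knockout call ended (limma adjusted p = 0.0796 and 0.0678), and without NEMO knockout replicate 3 the labelled double knockout passed against wild type (limma adjusted p = 0.0278).

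Ccl9, the other rodent ligand of this set, was not called: its wild type arrays (10.70, 10.54 and 10.64) lay below those of the NEMO knockout (10.81, 11.04 and 10.81) and the labelled double knockout (11.26, 11.05 and 10.78). The differences were 0.26 ± 0.12 (limma adjusted p = 0.272) and 0.40 ± 0.12 (limma adjusted p = 0.0749), and the second passed without labelled double knockout replicate 3 (limma adjusted p = 0.0253). Ccl4, macrophage inflammatory protein 1β, gave a flat signal between 6.14 and 6.27 on all 9 arrays. In the RefSeq gene order Ccl5, Ccl9, Ccl6, Ccl3 and Ccl4 follow each other on chromosome 11, so 3 called members and 2 uncalled ones share that run. The second run of CC genes on that chromosome, Ccl2, Ccl7, Ccl11, Ccl12, Ccl8 and Ccl1, held no called member.

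Cxcl16 and Cx3cl1, the 2 ligands that are made as membrane proteins, were both higher in the NEMO knockout. Cxcl16, the ligand of CXCR6, read 7.21, 7.30 and 7.22 in wild type, 8.02, 8.27 and 8.43 in the NEMO knockout and 7.82, 7.95 and 8.21 in the labelled double knockout. Every knockout array was above every wild type array, with differences of 0.99 ± 0.12 (1.99-fold, limma adjusted p = 0.00139) and 0.74 ± 0.12 (1.68-fold, limma adjusted p = 0.0051). Cx3cl1, or fractalkine, read 6.83, 6.83 and 6.85, then 7.12, 7.39 and 7.36, then 6.99, 7.32 and 7.10 in the same order of groups. Both knockout groups lay above wild type here too, by 0.46 ± 0.10 (1.37-fold, limma adjusted p = 0.0233) and 0.30 ± 0.10 (not called, limma adjusted p = 0.105).

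Ccl17 and Ccl22, the ligands of the T cell receptor CCR4, are the neighbours of Cx3cl1 in the gene order of chromosome 8, and all 3 were called higher in the NEMO knockout. Ccl22 read 5.31, 5.11 and 5.29 in wild type, 5.64, 5.67 and 5.96 in the NEMO knockout and 5.43, 5.64 and 5.54 in the labelled double knockout, and its wild type arrays lay below all others. Ccl17 read 5.20, 5.22 and 5.04, then 5.62, 5.49 and 5.96, then 5.48, 5.21 and 5.67, so the labelled double knockout overlapped wild type. The NEMO knockout differences were 0.52 ± 0.10 for Ccl22 (1.44-fold, limma adjusted p = 0.0135) and 0.54 ± 0.14 for Ccl17 (1.45-fold, limma adjusted p = 0.0498). For the labelled double knockout both were 0.30 and not called (limma adjusted p = 0.118 and 0.265).

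The calls of these small increases were lost in some fits that left out an array. Such fits also have fewer arrays, so a lost call does not show that the increase rests on that array. Without wild type replicate 1 or 2 the Ccl17 difference was 0.56 and 0.57, no smaller than with all arrays. Its SE rose there from 0.14 to 0.17. Without wild type replicate 3 the Ccl17 difference was smaller, 0.48 instead of 0.54. Without NEMO knockout replicate 3 it was 0.40, with an SE of 0.13, so there the size of the increase did depend on the array. The Ccl17 call ended in 11 of 18 alternative analyses, among them those without wild type replicate 1, 2 or 3 (limma adjusted p = 0.106, 0.101 and 0.152), NEMO knockout replicate 1 or 3 (0.0745 and 0.15) or labelled double knockout replicate 1 (0.0741). The Cx3cl1 call ended without wild type replicate 1, 2 or 3 (0.0702, 0.0694 and 0.0685) or NEMO knockout replicate 2 or 3 (0.084 and 0.0908), and the Ccl22 call without wild type replicate 2 (0.0518).

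The ligands that organise lymphoid tissue went in different directions. Ccl19, the CCR7 ligand of stromal and dendritic cells, read 7.66, 8.09 and 7.70 in wild type, 8.54, 8.74 and 8.55 in the NEMO knockout and 8.25, 8.14 and 8.25 in the labelled double knockout. The 3 groups did not overlap, with the labelled double knockout in between. The NEMO knockout was 1.74-fold above wild type (0.80 ± 0.11, SE, limma adjusted p = 0.00298) and the labelled double knockout 1.32-fold (0.40 ± 0.11, not called, limma adjusted p = 0.0623). The second difference passed in 4 of 18 alternative analyses: without wild type replicate 2 (0.54, limma adjusted p = 0.00852), with cyclic loess (0.0379), with array weights (0.0232) and without dim probe sets (0.0478). There are 5 probe sets with the Ccl19 symbol, and 2 of them hold the same values, so the copies of this gene can share signal. All 5 were called higher in the NEMO knockout, and 1 that is less bright was called higher in the labelled double knockout as well (0.40, limma adjusted p = 0.047).

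Cxcl13, which draws B cells through CXCR5, was the only member called lower in the NEMO knockout. It read 7.44, 7.67 and 8.04 in wild type, 6.06, 6.53 and 6.37 in the NEMO knockout and 5.53, 6.46 and 6.53 in the labelled double knockout. All 6 knockout arrays lay below the wild type arrays. The differences were -1.40 ± 0.26 (2.63-fold lower, limma adjusted p = 0.0109) and -1.55 ± 0.26 (2.92-fold lower, limma adjusted p = 0.00589). Beside this, none of 7 measured B and plasma cell markers was called in either comparison, their mean level ranging from 6.0 to 6.23 in wild type, 6.08 to 6.42 in the NEMO knockout and 6.15 to 6.36 in the labelled double knockout. Cxcr5 itself lay between 4.30 and 4.70 on all arrays and was not called.

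Cxcl12, the stromal ligand of CXCR4, and Ccl24, an eotaxin that acts on CCR3, were lower in the labelled double knockout. Cxcl12 read 10.38, 10.26 and 10.26 in wild type, 10.41, 10.27 and 10.44 in the NEMO knockout and 9.95, 10.06 and 9.97 in the labelled double knockout. Ccl24 read 6.26, 6.50 and 6.17, then 6.10, 6.37 and 6.33, then 5.92, 5.53 and 5.88. In both genes the 3 labelled double knockout arrays were the lowest of the 9, and the NEMO knockout overlapped wild type. Against wild type Cxcl12 differed by -0.31 ± 0.07 (1.24-fold lower, limma adjusted p = 0.0291) and Ccl24 by -0.53 ± 0.13 (1.44-fold lower, limma adjusted p = 0.0312). Against the NEMO knockout they differed by -0.38 (95% interval -0.54 to -0.22, limma adjusted p = 0.11) and -0.49 (-0.78 to -0.21, limma adjusted p = 0.281).

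Both calls were lost in some fits that left out an array, which also have fewer arrays. Over all alternatives the difference from wild type ran from -0.37 to -0.26 for Cxcl12 and from -0.60 to -0.41 for Ccl24. That of Cxcl12 was lost when wild type replicate 1, 2 or 3 was left out (limma adjusted p = 0.102, 0.0545 and 0.0618) and likewise for labelled double knockout replicate 1 or 3 (0.0941 and 0.101). The Ccl24 call ended without wild type replicate 1 or 2 (0.0701 and 0.0999) or labelled double knockout replicate 2 or 3 (0.0838 and 0.0621).

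**Figure D2:**
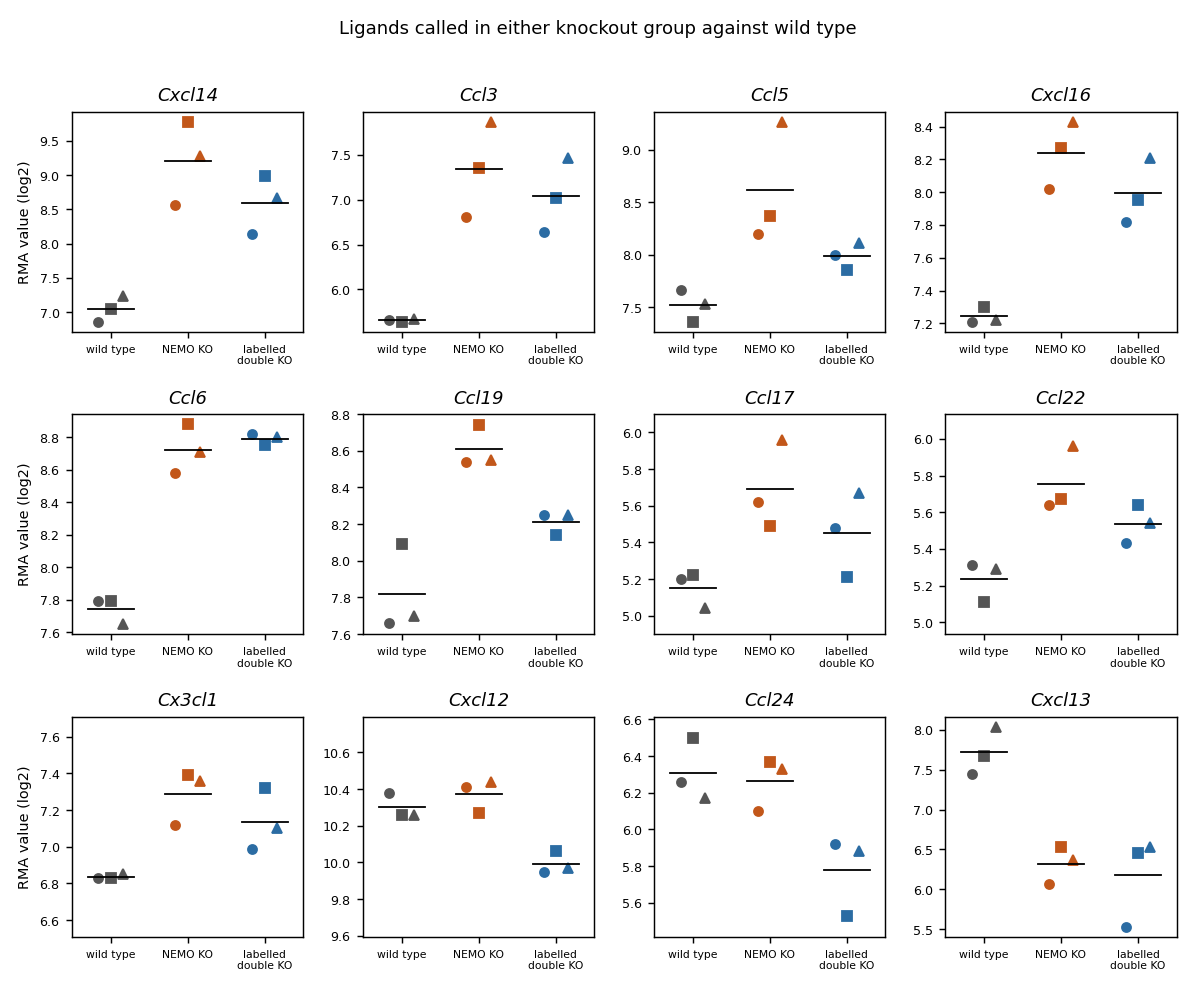
RMA value (log2, vertical axis, a separate range in each panel) on each of the 9 arrays for the 12 ligands called in either knockout group against wild type; circles, squares and triangles are replicates 1, 2 and 3, and lines are group means of 3 arrays. In Cxcl14, Ccl3, Cxcl16 and Ccl6 all knockout arrays lie above wild type, in Cxcl13 all lie below, and in Cxcl12 and Ccl24 the labelled double knockout alone is low.

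The promoters of the 4 called ligands with the largest difference from wild type that have an entry in the RefSeq promoter table (build GRCm38.p6) are shown because these ligands moved most. Each run is the 250 bases before the annotated start, on the gene's strand, and capitals mark matches to the motifs searched. The Cxcl14 stretch is chr13:56296552-56296801 (minus strand), Ccl3 is chr11:83649379-83649628 (minus), Cxcl13 is chr5:95956689-95956938 (plus) and Ccl6 is chr11:83593088-83593337 (minus).
Cxcl14: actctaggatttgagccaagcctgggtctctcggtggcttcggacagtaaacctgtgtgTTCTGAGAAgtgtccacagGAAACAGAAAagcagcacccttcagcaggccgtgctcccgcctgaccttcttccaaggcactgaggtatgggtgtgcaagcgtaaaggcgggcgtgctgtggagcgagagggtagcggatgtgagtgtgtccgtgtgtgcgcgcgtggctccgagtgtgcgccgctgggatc
Ccl3: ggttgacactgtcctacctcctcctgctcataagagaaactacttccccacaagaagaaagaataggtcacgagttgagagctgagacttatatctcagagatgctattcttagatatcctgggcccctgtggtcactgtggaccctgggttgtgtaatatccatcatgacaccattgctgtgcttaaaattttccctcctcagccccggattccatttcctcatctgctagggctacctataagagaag
Cxcl13: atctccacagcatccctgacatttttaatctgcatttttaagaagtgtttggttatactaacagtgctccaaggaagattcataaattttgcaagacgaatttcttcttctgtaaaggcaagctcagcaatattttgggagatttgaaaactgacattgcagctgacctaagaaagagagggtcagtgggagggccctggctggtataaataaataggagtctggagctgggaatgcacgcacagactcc
Ccl6: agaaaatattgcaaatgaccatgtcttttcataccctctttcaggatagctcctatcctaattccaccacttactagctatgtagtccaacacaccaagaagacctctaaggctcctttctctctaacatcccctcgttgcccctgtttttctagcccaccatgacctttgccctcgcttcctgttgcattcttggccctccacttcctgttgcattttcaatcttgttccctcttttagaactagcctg
On both strands, 3 motifs were searched: the NF-κB consensus of 10 bases, the interferon-stimulated response element core GAAANNGAAA and the STAT palindrome TTCNNNGAA. The interferon core occurs in 2.98% and the STAT palindrome in 7.02% of the 32851 promoters of that table, cut to the same length. The Cxcl14 stretch held 1 match of each, 172 and 191 bases before the start, which do not overlap. The other 3 stretches held none of the 3 motifs.

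The NF-κB consensus occurs in 7.25% of all promoters and in those of 10 of 37 members with an entry (27.0%), the other 14 members having no entry. The called members Ccl5, Cxcl16, Ccl24 and Ccr7 were among those not searched. None of the 14 called members with an entry held a match, and 10 of 23 uncalled ones with an entry did (43.5%), a split that was not tested. The 10 are Cxcl1, Cxcl2, Cxcl3, Cxcl10, Ccl1, Ccl9, Ccl20, Ccr1, Ccr3 and Ccr6. Of these, Cxcl2, Cxcl3 and Ccr1 read under 5.36, the 30th percentile of mean signal, on every array. Cxcl1, Cxcl10, Ccl1 and Ccl9 read above it on every array. No member with a mean under that level was called, so the split is not independent of signal level. The sites of the neutrophil attractants Cxcl1, Cxcl2 and Cxcl3 and of Cxcl10, a CXCR3 ligand, are shown as the best known NF-κB targets among the 10. The match is in capitals, with 9 flanking bases on each side and overlapping matches joined.
Cxcl1: ctgtactccGGGAATTTCCCtggcccgga
Cxcl2: ctgagctcaGGGAATTTCCCtggtccccg
Cxcl3: agctgcgggGGGAATTTCCCcagcccggg
Cxcl10 distal: gaggggagaGGGAAATTCCaagttcatg
Cxcl10 proximal: cggtttacaGGGGACTTCCCtcgggttgc
A match describes letters only, and its absence says only that these letters are not in this window. The Cxcl1 site is chr5:90891165-90891193, that of Cxcl2 is chr5:90903793-90903821 and that of Cxcl3 is chr5:90786019-90786047 (all plus strand). The Cxcl10 sites are chr5:92349030-92349057 and chr5:92348974-92349002 (minus strand).

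The ligands of CXCR2, which recruit neutrophils, showed no call in any comparison. Cxcl1 read 7.51, 6.79 and 6.77 in wild type, 6.97, 6.59 and 6.79 in the NEMO knockout and 6.92, 6.66 and 6.79 in the labelled double knockout. Only wild type replicate 1 stood out, and the differences from wild type were -0.24 (95% interval -0.67 to 0.19) and -0.23 (-0.66 to 0.20). Cxcl2, Cxcl3, Cxcl5 and Cxcl15 lay between -0.18 and 0.07 of wild type in both knockout groups. Their 95% intervals lay between -0.34 and 0.22.

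Among the CXCR3 ligands, which interferon γ induces and which attract activated T and NK cells, none was called either. Cxcl9 read 8.78, 9.26 and 9.06 in wild type, 8.75, 9.00 and 9.63 in the NEMO knockout and 8.22, 7.95 and 8.99 in the labelled double knockout, and the groups overlapped. Its differences were 0.09 (95% interval -0.55 to 0.74, limma adjusted p = 0.895) and -0.65 (limma adjusted p = 0.237) from wild type, and -0.74 (-1.38 to -0.10, limma adjusted p = 0.61) between the knockout groups. Cxcl10 differed by 0.41 and 0.08 from wild type and Cxcl11 by -0.01 and -0.16 (limma adjusted p = 0.293 or above).

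Nor did Ccl2, Ccl7, Ccl8 and Ccl12, listed as monocyte-attracting CC ligands, pass. Ccl2, monocyte chemoattractant protein 1, read 6.62, 6.36 and 6.38 in wild type, 6.61, 6.86 and 6.90 in the NEMO knockout and 6.85, 6.66 and 7.18 in the labelled double knockout. The labelled double knockout lay wholly above wild type and the NEMO knockout overlapped it, with differences of 0.44 ± 0.14 (limma adjusted p = 0.0897) and 0.33 ± 0.14 (limma adjusted p = 0.21). Without labelled double knockout replicate 2 the first passed (0.56, limma adjusted p = 0.0467). Ccl7, Ccl8 and Ccl12 differed from wild type by 0.17 or less, and Ccl8 and Ccl12 read under 5.36 on every array.

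None of the remaining ligands was called. Ccl25, which acts on CCR9, read 7.59, 7.70 and 7.85 in wild type, 7.41, 7.35 and 7.51 in the NEMO knockout and 7.25, 7.10 and 7.54 in the labelled double knockout. It lay below wild type in both, by -0.29 ± 0.11 (limma adjusted p = 0.188) and -0.41 ± 0.11 (limma adjusted p = 0.054), and the second passed without labelled double knockout replicate 3 (-0.53, limma adjusted p = 0.0205). Ccl11, an eotaxin, lay between 6.24 and 6.32 on all arrays and Ccl26 between 4.96 and 5.37. Ccl1, Ccl20, Ccl28, Cxcl17 and Xcl1 differed from wild type by -0.22 to 0.24, none called.

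Of the 17 receptors, Ccr2 and Cx3cr1 were called in both knockout groups. Ccr2 brings monocytes into inflamed tissue. It read 4.80, 5.03 and 4.81 in wild type, 5.83, 6.11 and 6.48 in the NEMO knockout and 5.83, 6.09 and 6.02 in the labelled double knockout. Each knockout array was above each wild type array, by 2.39-fold in the mean of the NEMO knockout (1.26 ± 0.15, SE, limma adjusted p = 0.00126) and 2.15-fold in that of the labelled double knockout (1.10 ± 0.15, limma adjusted p = 0.00205).

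Cx3cr1, the fractalkine receptor of monocytes and some lymphocytes, read 6.98, 6.58 and 7.05 in wild type, 7.62, 7.73 and 8.26 in the NEMO knockout and 7.57, 7.69 and 7.74 in the labelled double knockout. Again neither knockout group overlapped wild type (1.0 ± 0.17, limma adjusted p = 0.00733, and 0.79 ± 0.17, limma adjusted p = 0.0198). The second call ended without wild type replicate 2 (limma adjusted p = 0.0639) or labelled double knockout replicate 2 or 3 (0.0591 and 0.0751).

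Most markers listed for monocytes and infiltrating macrophages moved alongside these receptors. In each comparison 7 of 10 were called higher: Itgax, Gpnmb, Mmp12, Trem2, Cd9, Lgals3 and Cd68. Fabp5 was lower in the labelled double knockout. Itgam and S100a4 were called in neither comparison, and the monocyte marker Ly6c2 was not measured. The mean level of the list on an array ranged from 6.67 to 6.90 in wild type, 7.98 to 8.21 in the NEMO knockout and 7.92 to 8.29 in the labelled double knockout. Kupffer cell markers had 7 of 10 higher and 1, Cd163, lower in both, with means of 8.62 to 8.79, 9.04 to 9.28 and 9.16 to 9.25. Stellate cell and fibroblast markers had 9 of 11 higher in both (8.30 to 8.45, 9.39 to 9.66 and 9.43 to 9.56). Cholangiocyte markers had 4 and then 3 of 7 higher (6.26 to 6.44, 6.87 to 7.23 and 6.73 to 7.24). The part of these cells in the ligand and receptor differences was not tested. None of 8 endothelial and 10 hepatocyte markers was called.

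Ccr7, Ccr9 and Xcr1 were called in the NEMO knockout and not in the labelled double knockout, and the difference between those groups passed for none of them (limma adjusted p = 0.333 or above). Ccr7, which takes dendritic and T cells toward Ccl19, read 6.47, 6.59 and 6.75 in wild type, 7.24, 7.08 and 7.30 in the NEMO knockout and 6.91, 6.89 and 6.93 in the labelled double knockout. As with its ligand Ccl19, the groups did not overlap and the labelled double knockout lay in between, at 0.60 ± 0.09 (limma adjusted p = 0.00305) and 0.31 ± 0.09 (not called, limma adjusted p = 0.0596) from wild type. Without wild type replicate 3 the second passed (0.38, limma adjusted p = 0.0385).

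Ccr9, the Ccl25 receptor of gut-homing lymphocytes, read 5.52, 5.59 and 5.45, then 5.80, 6.16 and 5.90, then 5.69, 5.80 and 5.80. The knockout arrays all exceeded wild type, by 0.44 ± 0.09 (limma adjusted p = 0.0218) and 0.25 ± 0.09 (not called, limma adjusted p = 0.164). The first call ended without wild type replicate 1 or 3 (limma adjusted p = 0.0649 and 0.0812) or NEMO knockout replicate 3 (0.0535).

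Xcr1, which marks cross-presenting dendritic cells, read 5.61, 5.47 and 5.43 in wild type, 5.93, 5.92 and 5.96 in the NEMO knockout and 5.48, 5.71 and 5.71 in the labelled double knockout. The NEMO knockout stood above the other 2 groups, which overlapped, and was 0.43 ± 0.08 above wild type (1.35-fold, limma adjusted p = 0.0122). Without wild type replicate 3 the adjusted p was 0.0504 (limma). Dendritic cell markers had 2 of 7 higher in each knockout group, with mean levels of 6.19 to 6.29 in wild type, 6.48 to 6.69 in the NEMO knockout and 6.40 to 6.59 in the labelled double knockout; their part in the Xcr1 and Ccr7 differences was not tested.

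Cxcr4, the Cxcl12 receptor, was called in the labelled double knockout. It read 5.81, 6.19 and 5.86 in wild type, 6.35, 6.31 and 6.57 in the NEMO knockout and 6.43, 6.31 and 6.69 in the labelled double knockout, so both knockout groups lay above wild type. The differences were 0.52 ± 0.13 (1.44-fold, limma adjusted p = 0.038) for the labelled double knockout and 0.45 ± 0.13 (limma adjusted p = 0.0742) for the NEMO knockout, which passed without wild type replicate 2 (0.57, limma adjusted p = 0.0376). The call ended in 10 of 18 alternative analyses, including those without wild type replicate 1 or 3 (0.127 each), NEMO knockout replicate 1 or 2 (0.0534 and 0.0542) or labelled double knockout replicate 1 or 3 (0.0851 and 0.131).

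**Figure D3:**
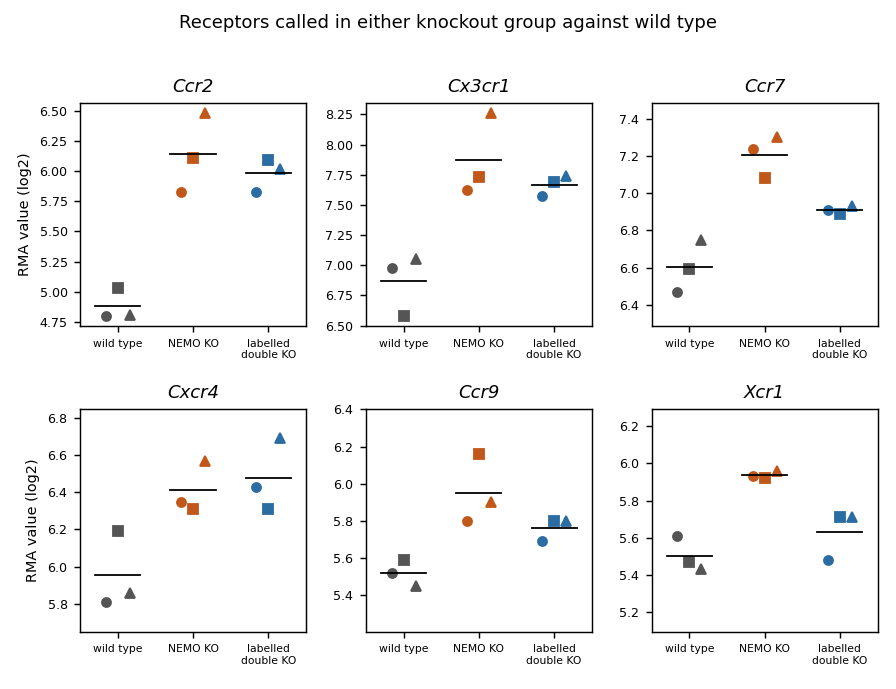
RMA value (log2, vertical axis, a separate range in each panel) on each of the 9 arrays for the 6 receptors called in either knockout group against wild type; circles, squares and triangles are replicates 1, 2 and 3, and lines are group means of 3 arrays. Ccr2 and Cx3cr1 are raised in both knockout groups, and in Ccr7 the labelled double knockout lies between the other groups.

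Some uncalled receptors were high on particular NEMO knockout arrays and are named after their values were seen. Cxcr2, the neutrophil receptor for the Cxcl1 family, read 4.15, 4.21 and 3.96 in wild type, 4.31, 4.95 and 5.11 in the NEMO knockout and 4.11, 4.18 and 3.92 in the labelled double knockout. The NEMO knockout did not overlap the other groups (0.68 ± 0.18 against wild type, limma adjusted p = 0.0558), and without its replicate 1 it passed (0.93, limma adjusted p = 0.00237). Cxcr6, the Cxcl16 receptor of T and NK cells, read 5.35, 5.05 and 5.25, then 5.41, 5.55 and 6.0, then 5.19, 5.11 and 5.25. Here too the NEMO knockout lay above both other groups, at 0.44 ± 0.14 (limma adjusted p = 0.11), and it passed without its replicate 1 (0.56, limma adjusted p = 0.0488). Ccr1, which binds Ccl3 and Ccl6, differed by 0.57 ± 0.18 and overlapped wild type (limma adjusted p = 0.0961); it passed without wild type replicate 2 (0.75, limma adjusted p = 0.0383). The remaining 8 receptors, Ccr3, Ccr4, Ccr6, Ccr8, Ccr10, Cxcr1, Cxcr3 and Cxcr5, differed from wild type by -0.14 to 0.18 and were not called.

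The mean levels of neutrophil, NK and T cell markers were highest on the same array, NEMO knockout replicate 3, that was highest for Ccl5, Cxcr2 and Cxcr6. Its mean over 11 neutrophil markers was 6.44, against 5.91 and 5.95 for the other NEMO knockout arrays, 5.52 to 5.66 in wild type and 5.88 to 5.99 in the labelled double knockout. Over 9 NK cell markers it was 5.58, against 5.11 and 5.26, then 4.97 to 5.06 and 5.02 to 5.15. Over 9 T cell markers it was 6.22, against 6.07 and 6.03, then 5.85 to 5.91 and 5.86 to 6.04. The B and plasma cell (6.42), dendritic cell (6.69) and stellate cell and fibroblast (9.66) lists also had their highest mean on that array. The monocyte and macrophage, Kupffer cell, cholangiocyte, endothelial and hepatocyte lists did not. Not every listed marker was highest there: Ly6g, Ncr1, Prf1, Eomes, Cd3d and Cd3e, among others, were highest on other arrays. The neutrophil marker Ngp read 7.58 there, against 5.64 and 5.46 on the other NEMO knockout arrays. In the NEMO knockout 3 of 11 neutrophil, 2 of 9 NK and 1 of 9 T cell markers were called higher, and in the labelled double knockout 2, 0 and 0. The neutrophil calls were Lcn2 (2.19 and 2.24) and Csf3r (0.68 and 0.36) in both groups, and Retnlg in the NEMO knockout. S100a8, S100a9, Ly6g, Mpo, Camp, Ngp, Elane and Mmp8 were called in neither. The part of these cells in the chemokine differences was not tested. Among all 51 members, NEMO knockout replicate 1 was the highest of its group in 16 (31.4%), replicate 2 in 14 (27.5%) and replicate 3 in 21 (41.2%), and over all 28939 probe sets these shares were 43.1%, 31.0% and 25.9%. Among the 15 members called in that group, which the call itself selects, the counts were 0, 6 and 9.

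**Figure D4:**
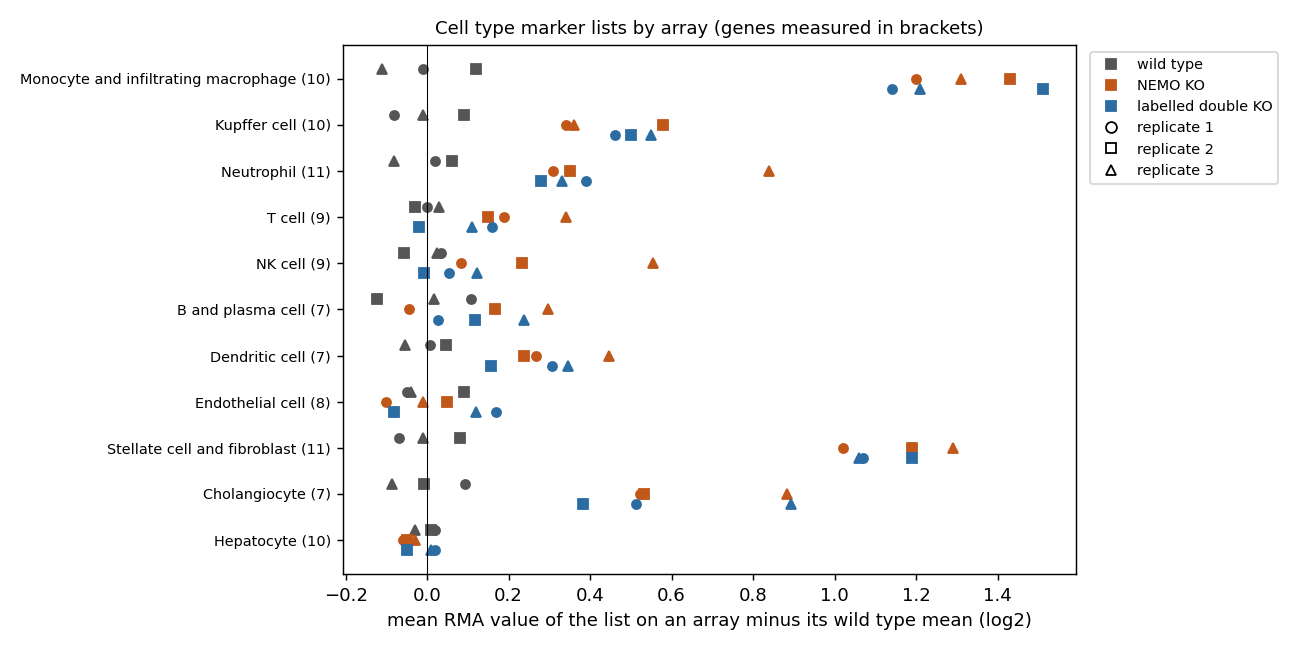
Mean RMA value of each cell type marker list on each array minus the list's wild type mean (log2, horizontal axis); colours are the 3 groups, symbols the replicate, and the number of genes measured is in brackets. The monocyte and macrophage list and the stellate cell list lie more than 1 above wild type on all 6 knockout arrays. The hepatocyte list stays near 0. NEMO knockout replicate 3 has the highest mean of the neutrophil, NK, T, B and plasma, dendritic and stellate cell lists.

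Read as ligand and receptor pairs, the calls fell on both partners of Ccl19 and Ccr7 and of Cx3cl1 and Cx3cr1 in the NEMO knockout. For Ccr2 the receptor was called in both knockout groups and none of its ligands Ccl2, Ccl7 and Ccl12 was. For Xcr1 and Ccr9 the receptor was called in the NEMO knockout, and Xcl1 (0.24 ± 0.12) and Ccl25 (-0.29 ± 0.11) were not. The reverse held for Cxcl16 without Cxcr6, Ccl3 and Ccl6 without Ccr1, Ccl17 and Ccl22 without Ccr4, and Cxcl13 without Cxcr5. Cxcl12 was lower and Cxcr4 higher in the labelled double knockout.

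The labelled double knockout was then set against the NEMO knockout directly. By limma 0 of 51 members were called, where 0.0864% of all probe sets were called higher and 0.111% lower, and at an unadjusted p under 0.05 there were 10. All 10 were lower in the labelled double knockout, where 3.99% of all probe sets were lower and 3.47% higher at that p; fitting the spread with an intensity trend also gave 0 and 10. They are Cxcl12, Ccl24, Ccl5, Ccl19, Ccr7, Cxcr2, Cxcr6, Xcr1, Cxcl9 and Ccr4, named after their values were seen. The smallest adjusted p was 0.11, that of Cxcl12. The largest differences were those of Cxcl9 (-0.74), Cxcr2 (-0.72, 95% interval -1.13 to -0.30) and Ccl5. Without NEMO knockout replicate 1, Cxcr2 passed (-0.96, limma adjusted p = 0.0422).

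For most members the interval of this difference bounded it only within a wide limit. In 47 of 51 it lay wholly within 1 log2 unit either way, its width running from 0.25 to 1.33. That limit is larger than many called differences of the NEMO knockout from wild type, such as 0.80 for Ccl19 and 0.60 for Ccr7. The genes raised in both knockout groups had values near each other: Ccl6 differed by 0.07 (-0.12 to 0.26), Ccr2 by -0.16 (-0.50 to 0.18), Cx3cr1 by -0.21 (-0.59 to 0.18), Cxcl16 by -0.25 (-0.52 to 0.03) and Ccl3 by -0.29 (-0.88 to 0.29). Cxcl14 had the wide interval of -1.28 to 0.05 around -0.61, and Cxcl13 that of -0.74 to 0.44 around -0.15. The median member differed by -0.12, and the median gene by 0.

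Genes around the family were read from lists. Of 10 chemokines and atypical receptors with other symbols, 3 were higher in the NEMO knockout: Ccrl2 (0.61), Cmklr1 (0.55) and the scavenging receptor Ackr3 (0.44). Ccrl2 (0.56) and Cmklr1 (0.59) were also higher in the labelled double knockout, and the platelet chemokines Pf4 and Ppbp were not called. The probe sets shared by gene copies also carried signal. Those of Ccl27, a ligand of CCR10, were lower in both knockout groups: 2 of the 3 hold the same values, with differences of -0.36 ± 0.07 (limma adjusted p = 0.0148) and -0.43 ± 0.07 (0.00578), and the other gave -0.31 and -0.36 (0.02 and 0.00932). The 4 of Ccl21, which acts on CCR7 as Ccl19 does, hold the same values: 7.27, 6.47 and 7.47 in wild type, 7.5, 6.84 and 7.42 in the NEMO knockout and 8.60, 7.55 and 8.01 in the labelled double knockout. The labelled double knockout lay above both other groups, by 0.98 ± 0.32 from wild type (limma adjusted p = 0.0985) and 0.80 ± 0.32 from the NEMO knockout (limma adjusted p = 0.624), neither called.

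Of 27 measured genes listed as carrying or regulating the signal of chemokine receptors inside leukocytes, 15 were higher and 0 lower in each knockout group. Over all probe sets 5.66% and 5.81% were called higher, and 2.02% and 3.51% lower. Called in both were the G protein subunit Gnai2 (0.49 in both), the phosphoinositide 3-kinase catalytic subunit Pik3cg (0.53 and 0.57), and the Rac activators Dock2 (1.05 and 0.87), Elmo1 (1.10 and 0.84) and Vav1 (0.94 and 0.81). So were the regulator of G protein signalling Rgs2 (1.35 and 1.03), the largest of the list in the NEMO knockout, and the arrestin Arrb2 (0.45 and 0.34). Rgs1 was called in the labelled double knockout only, and Arrb1, Grk5 and Rgs18 in neither. The median of that list was 0.45 and 0.34, beside -0.03 over all genes in both. Of 10 measured NF-κB pathway genes, Ikbkg was lower in both knockout groups and Tnfaip3, a feedback inhibitor, was higher in the labelled double knockout (0.41), and the others were not called. No gene of these lists was called between the knockout groups.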

How the data were processed

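The authors deposited a matrix of log2 intensities, with a column for every array. RMA is the method listed in the submitters' processing notes; it corrects background, equalises the distribution of all arrays and combines the probes of each set. That the base is 2 was inferred from the method and the range of the values. Software versions, build and filters were not given in the sources used here. A shift shared by all transcripts cannot be seen after this step. The number of arrays limits the precision.

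From 35556 probe sets, 6617 with identifiers below the first annotated one were left out, a block without any gene symbol. For the other 28939, lmFit and eBayes of limma 3.58.1 (R 4.3.3, no trend) gave 1 mean per group over all 9 arrays, with p-values adjusted over all of them by Benjamini-Hochberg. The fit was tested on simulated data. The labels do not say that replicates are separate litters or batches, so p-values measure only the spread between these samples.

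The members, role lists, marker lists and tests were chosen with earlier results of these data known. Named with array values were called members, members with a difference of at least 1 and the brightest member of each role list; Cxcr2 and Cxcr6 were added after their values were seen. Symbols come from the platform annotation, and all 51 match the GRCm38.p6 gene table, which also gave the gene order.

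Alternatives were leaving out each array, a replicate block, median centring, cyclic loess, an intensity trend, array weights, 2-group fits, a filter on dim probe sets, all probe sets of the table, and gene means.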

Additional observations from a re-analysis of the deposited data

How the results depend on the processing

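Each comparison was run under 18 alternatives. Of the 15 members called in the NEMO knockout against wild type, 9 kept their call in all 18: Ccl3, Ccl6, Ccl19, Cxcl13, Cxcl14, Cxcl16, Ccr2, Ccr7 and Cx3cr1. Of the 10 called in the labelled double knockout, 6 did: Ccl3, Ccl6, Cxcl13, Cxcl14, Cxcl16 and Ccr2. No called member changed sign. With each array left out in turn, 9 to 15 members were higher and 1 was lower in the NEMO knockout, with 9 reached without wild type replicate 3. In the labelled double knockout 6 to 8 were higher and 1 to 3 lower, with 1 lower without wild type replicate 1 or 2. Between the knockout groups 0 were higher and 0 to 1 lower, the 1 being Cxcr2 without NEMO knockout replicate 1. Median centring gave 2 lower members instead of 1 in the NEMO knockout, the second being Ccl28 (-0.29, limma adjusted p = 0.0474). The cause of these shifts was not tested, and the fits that leave out an array also have fewer arrays. With the replicate block, 14 members were higher and 1 lower in the NEMO knockout, 8 higher and 3 lower in the labelled double knockout, and 0 between the knockout groups. The block ended the Ccl24 call (limma adjusted p = 0.0596) and made Ccr7 (0.0498) and Ccl25 (0.0176) pass in the labelled double knockout. Whether the numbers pair the arrays stayed unsettled. Deviations of same-numbered arrays from their group means correlated across probe sets at r = -0.116 to 0.391, and not every array correlated best with its own number. Between the knockout groups the same-numbered pairs 1, 2 and 3 gave 0.391, 0.083 and 0.247, and the other pairs -0.301 to 0.115. Pairs with a wild type array gave -0.116 to 0.18 and -0.166 to 0.183. Among members, 15 lie under the 30th percentile of mean signal and none of them was called, so small changes there may be missed.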
